A study of Homo sapiens with 12 samples.

Results

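CTPI2, an inhibitor of the mitochondrial citrate carrier SLC25A1, was compared with no inhibitor in senescent human fibroblasts. The comparison holds 6 of the study's 12 RNA sequencing libraries, chosen by their labels: 3 of irradiated cells without inhibitor (Sen(IR)) and 3 of irradiated cells with CTPI2 (Sen(IR)+CTPI2). All 16251 genes that passed a filter on low counts were tested. Both groups were MRC5 cells, a line of human fetal lung fibroblasts, made senescent with 20 Gy of X-rays. By the study's methods the inhibitor was added 1 day after irradiation, kept for 12 days and refreshed every 48 to 72 hours, and cells were collected from 10 days after irradiation. The methods list CTPI2 at 15 or 30 µM, and which of these was sequenced is not stated in the sources used here, nor is whether Sen(IR) cells received the solvent. The other 6 libraries, of proliferating cells (Prol) and of irradiated cells with the pyruvate carrier inhibitor UK5099, entered the same fit and served only for its estimate of spread and for levels set side by side.

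Senescent cells stop dividing and secrete chemokines, cytokines, growth factors and proteases, together called the senescence-associated secretory phenotype (SASP). NF-kB, a family of transcription factors held in the cytosol by inhibitors such as NFKBIA, drives many of these genes, and interleukin-1 made by the same cells feeds back on it. SLC25A1 moves citrate from the mitochondrion to the cytosol, where ATP-citrate lyase (ACLY) cleaves it to acetyl-CoA, the donor of the acetyl groups on histones. The comparison asks how the transcripts of senescent cells differ when the carrier is inhibited.

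Total counts per library were 20597736 to 22693608 in Sen(IR) and 22625528 to 24246769 in Sen(IR)+CTPI2. Levels are in CPM, counts scaled to a common library total with TMM factors, and the floor of 3 counts equals 0.124 to 0.147 CPM in these libraries (it covers counting error only). All 10 fibroblast markers were measured, with a summed level of 18300 to 21300 CPM. Epithelial markers summed to 5.54 to 7.9 CPM, mostly MUC1, and the keratins KRT5 and KRT14 had 0 counts. Blood cell markers summed to 5.2 to 6.89 CPM, mostly CD14 and CD68, with 0 to 5 counts per library of the leukocyte marker PTPRC. Smooth muscle markers summed to 68.6 to 82.5 CPM, mostly ACTG2 and CNN1. Endothelial markers summed to 300 to 367 CPM, nearly all of it TEK, with 0 to 8 counts of PECAM1. In these bulk libraries, fewer cells making a transcript and less transcript per cell cannot be told apart. The labels do not say what separates the 3 libraries of a group, and the study describes them as independent experiments. The p-values set each change against a spread estimated over all 12 libraries of the fit, Prol and UK5099 included, and not over the 6 compared libraries alone.

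The third CTPI2 library stood apart from its group. Sen(IR)+CTPI2 replicate 3 correlated with its group at a Pearson r of 0.9948 and 0.9953 (log2 CPM across genes, which are not independent), against 0.9965 between replicates 1 and 2. In other groups of the study r was as low or lower within Prol (0.9929 to 0.9948) and slightly higher with UK5099 (0.9954 to 0.9959). Its counts differed from theirs by a chi-square per gene, which is 1 for sampling noise alone, of 8.73 and 7.77, against 2.82 between replicates 1 and 2, 2.28 to 3.38 within Sen(IR) and up to 13.6 within Prol. Mitochondrial genes held 2.39% of its counts, against 3.07% and 3.28% in the other CTPI2 libraries and 2.78 to 3.21% in Sen(IR). Within Sen(IR), the chi-square was 2.28 between replicates 1 and 2 and 3.27 and 3.38 for the pairs with replicate 3. Sen(IR) replicate 1 differed in the interferon-stimulated genes, of which it held the highest level in 21 of 25. Results that rest on either library are given below with and without it.

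A small group of transcripts was lower with CTPI2, led by chemokines that attract neutrophils, and most other changes were small. Genes were called where edgeR's adjusted p was under 0.05 and the log2 fold change lay more than 0.5 from 0. By this rule 27 genes were called (0.166% of those tested), 24 of them lower (0.148%) and 3 higher (0.0185%). At the same adjusted p with no limit on the fold, 65 genes were lower (0.4%) and 14 higher (0.0861%). An unadjusted p under 0.05 held 1182 genes (7.27%), 722 on the lower side (4.44%) and 460 on the higher side (2.83%). The lowered genes kept 36.7 to 69.4% of their Sen(IR) level, with a median of 57.6%. The 27 called genes had no overlap between groups, as had 15.1% of all genes tested (8.3% lower and 6.79% higher with CTPI2).

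Over the 12331 genes with a mean level above 1 on the log2 CPM scale, the median absolute log2 fold change was 0.0646, the 90th percentile 0.206 and the 99th percentile 0.463. Only 8 of these genes passed an absolute value of 1, and 94 (0.762%) passed 0.5. The same median was 0.475 for Sen(IR) against Prol and 0.232 for UK5099 against Sen(IR), comparisons that share the Sen(IR) libraries with this one. The median SE of a log2 fold change was 0.0828, and the smallest absolute change that passed the adjusted p was 0.218. The 95% interval lay within 0.5 of no change for 10745 of the 12331 genes (87.1%) and within 0.25 for 6301 (51.1%).

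**Figure D1:**
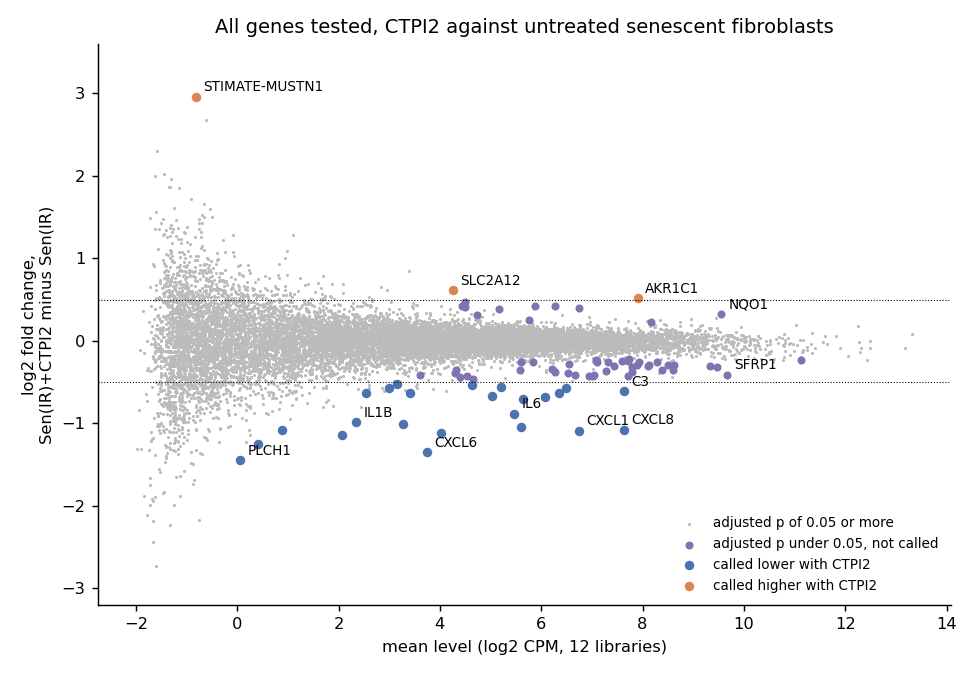
Log2 fold change of Sen(IR)+CTPI2 minus Sen(IR) (y axis) against the mean level in log2 CPM over 12 libraries (x axis) for the 16251 genes tested, with dotted lines at the fold limit of 0.5. The 24 genes called lower (blue) have mean levels from 0.0657 (PLCH1) to 7.64 (CXCL8 and C3), 3 genes (orange) were called higher, and 52 genes passed the adjusted p with a smaller change (purple).

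Of the 24 genes called lower, 13 were in inflammatory lists, and of the 65 lower at the adjusted p with any fold, 21 were. In 10 lists of chemokines, cytokines, NF-kB components, inflammatory enzymes and related secreted genes, 104 of 127 genes were tested, 13 were called lower (12.5%, against 0.148% of all genes tested) and 0 higher. At an unadjusted p under 0.05 the lists held 41 genes on the lower side (39.4%, against 4.44%) and 1 on the higher side, and their median log2 fold change was −0.187, against 0.00321 over all genes tested. These lists were written with earlier results of these data known, so their counts describe them and support nothing beyond.

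**Figure D2:**
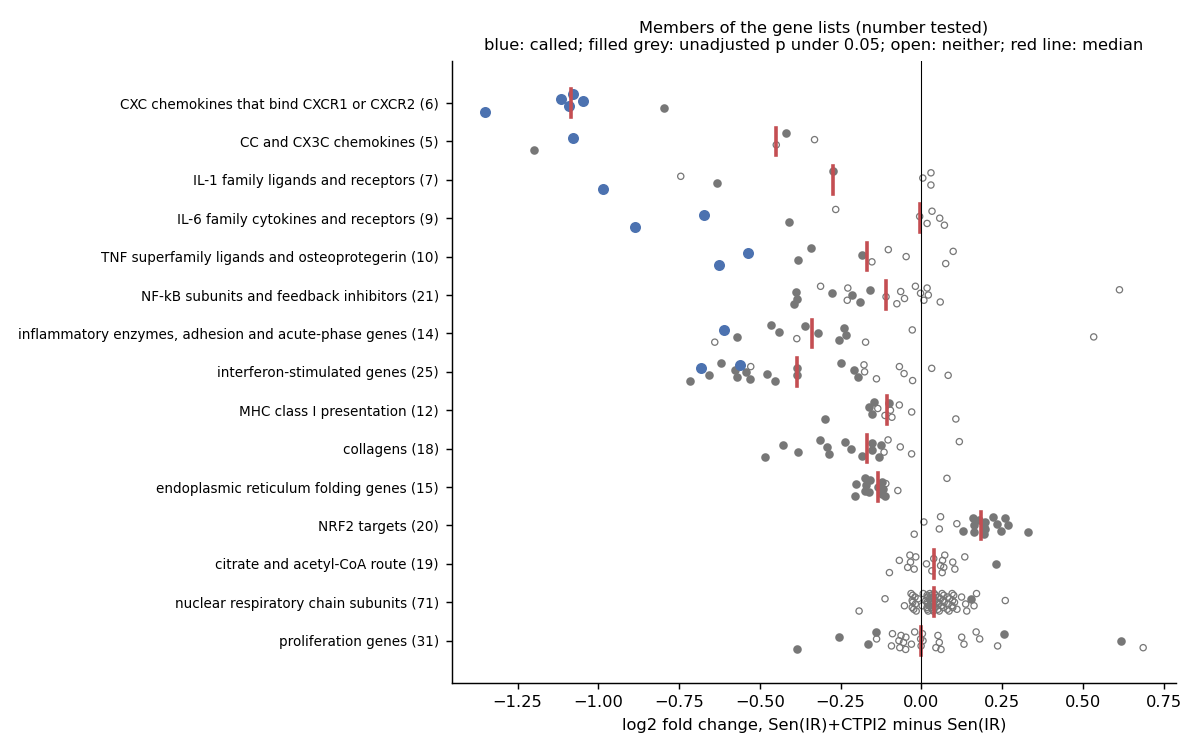
Log2 fold change of Sen(IR)+CTPI2 minus Sen(IR) for each tested member of 15 gene lists, 1 point per gene, blue where called, grey where the unadjusted p was under 0.05, open where neither, with a red line at the list median. The CXCR1 and CXCR2 ligands lie farthest to the left at a median of −1.08, NRF2 targets lie to the right of 0 at 0.185, and proliferation genes straddle 0 at −0.00256.

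The CXC chemokines that bind CXCR1 or CXCR2, the receptors by which neutrophils follow these signals, moved farthest. Of 7 genes in the family, 6 were tested, 5 were called lower (against 0.148% of all genes tested), and the sixth, CXCL2, had the same sign. CXCL1 (chromosome 4, 73869393 to 73871308, plus strand) stood at 289.5, 299.2 and 295.7 CPM in Sen(IR) replicates 1 to 3 and at 141.1, 122.8 and 151.6 CPM with CTPI2. Every CTPI2 library was far below every Sen(IR) library, and the log2 fold change was −1.09 (SE 0.0758, edgeR adjusted p 2.81e-08). CXCL6, which like CXCL8 binds both receptors, was at 32.79, 40.58 and 45.8 CPM in Sen(IR) and at 15.13, 14.32 and 17.19 CPM with CTPI2. Its Sen(IR) libraries spread more than those of CXCL1, but the groups did not overlap (−1.35, SE 0.12, edgeR adjusted p 7.47e-07).

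CXCL5, another neutrophil attractant, was at 123.6, 128.1 and 136.3 CPM without and at 62.53, 56.87 and 68.1 CPM with CTPI2, a log2 difference of −1.05 (SE 0.0828) at an edgeR adjusted p of 1.59e-07. CXCL3 was at 43.6, 43.71 and 47.42 CPM without and 20.7, 17 and 24.51 CPM with it (−1.12, SE 0.101, edgeR adjusted p 8.32e-07). CXCL8, the chemokine also called interleukin-8, was at 549, 543.8 and 524.3 CPM without and 258, 194.8 and 312.9 CPM with it. For these 3 genes replicate 2 was the lowest and replicate 3 the highest CTPI2 library, and the groups were well apart. CXCL2 went from 7.875, 8.675 and 8.435 CPM to 5.35, 3.632 and 5.412 CPM, without overlap but at an edgeR adjusted p of 0.164 (log2 fold change −0.80, SE 0.218), so it was not called, whereas DESeq2 called it (adjusted p 0.013). CXCL1, CXCL2 and CXCL3 resemble each other closely in sequence, so reads that fit more than one of them were not counted, and 17.32% of the exon bases of CXCL5 are shared with an unnamed overlapping gene.

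**Figure D3:**
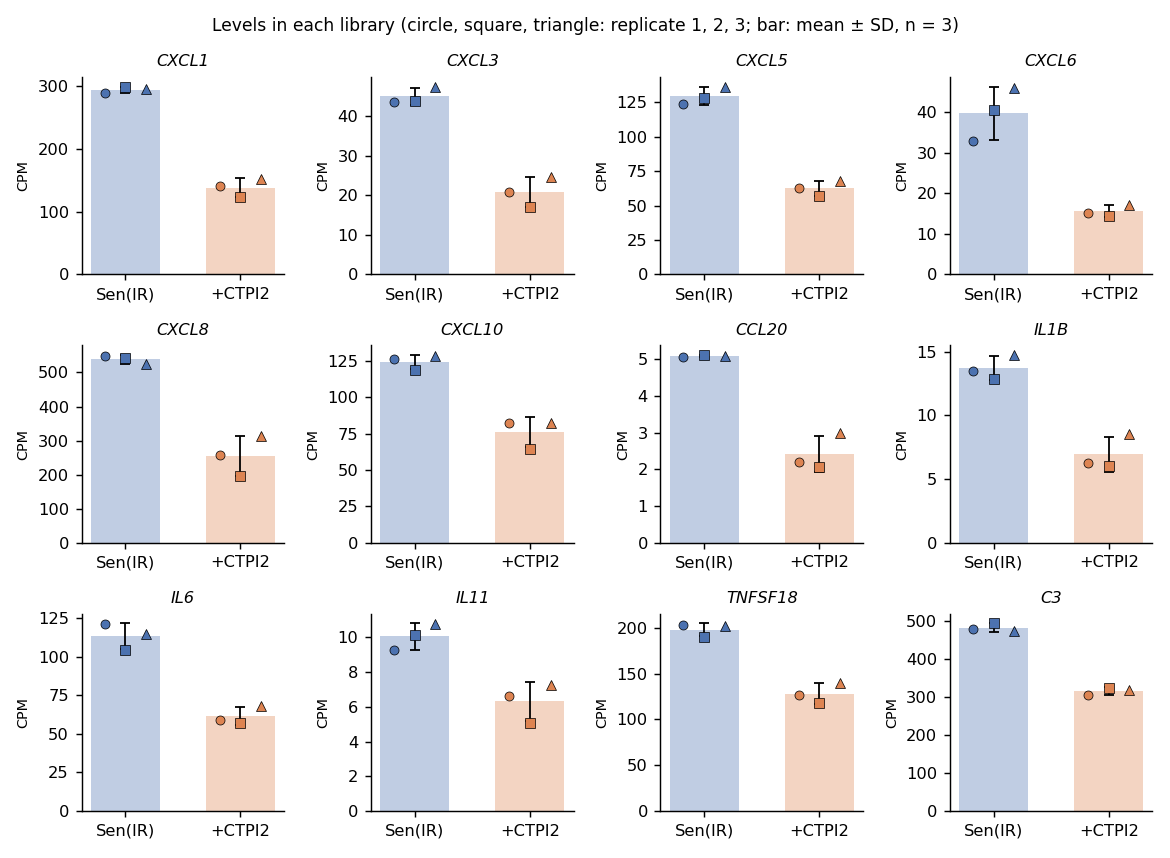
Levels in CPM (y axis, from 0) of 12 inflammatory genes in each of the 3 Sen(IR) and 3 Sen(IR)+CTPI2 libraries, with bars at the mean and error bars of 1 SD (n = 3). In every panel all 3 CTPI2 libraries lie below all 3 Sen(IR) libraries, and CTPI2 replicate 2 (square) is the lowest of its group in all panels but that of C3.

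The 6 tested genes of the family sit together on chromosome 4, from CXCL8 at 73740519 to CXCL2 at 74099196, a span of 358678 bases in GRCh38. Within this span and 500000 bases on either side, 5 other genes were tested. These were ANKRD17, AFP, MTHFD2L and the EGF-family ligands EREG and AREG. In edgeR 0 of the 5 were called and 0 had an unadjusted p under 0.05, and the value farthest from 0 was that of AREG, at −0.16 on the log2 scale.

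Promoter sequences are shown for 4 lowered genes, since NF-kB acts on them through short DNA elements near the start site, and for TXNRD1, an NRF2 target described below. The NF-kB consensus and the antioxidant response element TGACNNNGC, which NRF2 binds, were searched on both strands in the 250 bases before each RefSeq gene start (GRCh38.p14). The printed windows run from 250 to 51 bases before the start, all genes lie on the plus strand, and capitals mark a match, in CXCL1 and CXCL6 2 overlapping matches on opposite strands. The windows are chr4:73869143-73869342 for CXCL1, chr4:73836428-73836627 for CXCL6, chr4:73740319-73740518 for CXCL8, chr7:22726950-22727149 for IL6 and chr12:104215529-104215728 for TXNRD1.
CXCL1: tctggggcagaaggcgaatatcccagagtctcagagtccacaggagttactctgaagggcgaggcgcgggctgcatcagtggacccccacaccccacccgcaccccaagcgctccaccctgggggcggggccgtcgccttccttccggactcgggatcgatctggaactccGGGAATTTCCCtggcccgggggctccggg
CXCL6: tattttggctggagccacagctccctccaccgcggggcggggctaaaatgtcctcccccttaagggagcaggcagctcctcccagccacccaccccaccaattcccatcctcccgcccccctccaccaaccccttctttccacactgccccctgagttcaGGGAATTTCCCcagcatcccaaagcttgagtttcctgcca
CXCL8: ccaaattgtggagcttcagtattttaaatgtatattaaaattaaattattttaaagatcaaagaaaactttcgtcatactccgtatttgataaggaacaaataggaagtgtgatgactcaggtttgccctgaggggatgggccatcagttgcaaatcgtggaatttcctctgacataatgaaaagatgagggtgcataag
IL6: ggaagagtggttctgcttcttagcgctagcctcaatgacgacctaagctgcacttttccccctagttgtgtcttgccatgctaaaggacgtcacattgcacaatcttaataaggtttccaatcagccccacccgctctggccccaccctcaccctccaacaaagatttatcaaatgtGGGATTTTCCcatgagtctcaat
TXNRD1: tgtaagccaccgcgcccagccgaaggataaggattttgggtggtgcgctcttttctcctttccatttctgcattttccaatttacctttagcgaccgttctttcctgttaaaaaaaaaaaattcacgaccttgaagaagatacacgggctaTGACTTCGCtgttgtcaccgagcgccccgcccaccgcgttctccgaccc

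The NF-kB match began 79 bases before the start of CXCL1, 90 bases before that of CXCL6 and 73 bases before that of IL6. CXCL8 held no match to the strict consensus, which says only that these letters are not in its window. Of the 6 CXCR1 and CXCR2 ligands tested, 5 held a match (83.3%), as did 11 of the 21 genes called lower that had a promoter in the table (52.4%). CXCL1, CXCL3, CXCL5 and CXCL6 count in both, so these 2 shares are not independent. The share was 9.96% over all 35116 promoters and 11.7% over the 11640 genes tested that had one. Among the 50 genes with a promoter that were lower at the adjusted p with any fold, 17 held a match (34%), including the NF-kB feedback genes NFKBIZ and TNFAIP3. The 11 matched genes called lower are among these 17, so this share is not independent of theirs. A match describes the letters and does not show binding.

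Other chemokines moved less, or in single members. CXCL10, which attracts T cells through CXCR3, went from 126.1, 118.8 and 128.2 CPM to 82.27, 64.55 and 82.22 CPM, with no overlap (log2 fold change −0.70, SE 0.0859, edgeR adjusted p 6.36e-05). CXCL12, the ligand of CXCR4, was at 15.04, 13.98 and 16.13 CPM without and 16.71, 18.82 and 17.53 CPM with CTPI2 (0.23, unadjusted p 0.036, edgeR adjusted p 0.635) and was not called. CCL2, the main attractant of monocytes, fell by 25.2% from 215.5, 220.7 and 231.8 CPM to 164.4, 158.1 and 176.9 CPM, beyond the spread between libraries but under the fold limit (edgeR adjusted p 0.0003). CCL20, the ligand of CCR6, was at 5.072, 5.12 and 5.1 CPM in Sen(IR) and at 2.193, 2.064 and 2.987 CPM with CTPI2. Its call (edgeR adjusted p 0.0239) held in 1 of 6 fits with a library omitted. CX3CL1, fractalkine, was at 0.9481 to 1.869 CPM and 0.5196 to 0.7841 CPM, which gave an edgeR adjusted p of 0.226. The 5 tested CC and CX3C chemokines had a median of −0.45, which became −0.98 without Sen(IR)+CTPI2 replicate 3.

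Among the interleukins, only ligands passed the adjusted p, and no tested receptor of the IL-1 and IL-6 families did. IL6 was at 120.9, 104.4 and 114.8 CPM in Sen(IR) and at 59.2, 56.87 and 68.1 CPM with CTPI2, without overlap (log2 fold change −0.89, edgeR adjusted p 6.01e-06). The deposited counts of IL6 and CXCL5 were the same in CTPI2 replicates 2 and 3 (1378 and 1573) and differed in the other libraries. Whether this is a chance tie or a fault in the table cannot be told apart, so the values of both genes in these 2 libraries carry that doubt. IL11, a relative of IL6 that signals through the same receptor chain, went from 9.254, 10.14 and 10.79 CPM to 6.622, 5.076 and 7.23 CPM (−0.67, SE 0.126, edgeR adjusted p 0.00921). The IL11 call held in 3 of 6 fits with a library omitted, with an edgeR adjusted p of up to 0.119. LIF, a further member of that family, was at 224.6 to 247.4 CPM and 171 to 185.4 CPM and fell by 24.8% (edgeR adjusted p 0.0003). The 9 tested IL-6 family genes had a median of −0.00556. The 4 receptors lay between −0.00556 (LIFR) and 0.06 (IL6R), and the ligands CTF1, at 0.07 (edgeR adjusted p 0.963), and CLCF1, at −0.27 (0.821), did not pass.

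IL1B, the secreted interleukin-1 that acts back on the same cells, was at 13.52, 12.85 and 14.76 CPM in Sen(IR) and at 6.271, 5.984 and 8.529 CPM with CTPI2. Its groups were apart, with replicate 3 the nearest to Sen(IR) (−0.98, SE 0.14, edgeR adjusted p 0.000425). IL1A was at 4.227, 4.409 and 2.795 CPM and at 3.026, 1.61 and 2.771 CPM, with overlapping groups (log2 fold change −0.63, edgeR adjusted p 0.611). IL1RAP, the accessory chain of the interleukin-1 receptor, had a log2 fold change of −0.27 (edgeR adjusted p 0.204). Of the other interleukins and colony-stimulating factors, 0 of 10 were called, and CSF3, the neutrophil growth factor, stood at 0.7111 to 1.201 CPM and 0.1238 to 0.5262 CPM (−1.47, edgeR adjusted p 0.379).

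In the TNF superfamily, 2 of 10 tested genes were called lower, against 0.148% of all genes tested. TNFSF18, the ligand of the T cell receptor GITR, went from 202.9, 189.6 and 201.7 CPM to 126.6, 117.6 and 140.3 CPM (log2 fold change −0.63, SE 0.0666, edgeR adjusted p 7.89e-06). Its groups did not overlap. TNFSF15, a T cell costimulator, went from 59.26, 52.76 and 57.92 CPM to 38.24, 33.72 and 45.11 CPM (−0.54, edgeR adjusted p 0.0495). That call held in 1 of 6 fits with a library omitted and was lost with DESeq2 (adjusted p 0.57). TNFSF4, at −0.38 (edgeR adjusted p 0.176), and the decoy receptor TNFRSF11B, at −0.18 (0.143), did not pass. The list median was −0.17, and −0.39 without Sen(IR)+CTPI2 replicate 3.

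The NF-kB genes themselves shifted little. Of 21 subunits and feedback inhibitors, 0 were called by edgeR or DESeq2, and 16 were negative (against 49% of all genes tested), with a median of −0.11. On the lower side 7 had an unadjusted p under 0.05 in edgeR (against 4.44%). NFKBIZ, a nuclear cofactor needed for IL6, passed the adjusted p at a log2 fold change of −0.38, from 173.8, 174.4 and 176.2 CPM to 129.8, 126.8 and 145.3 CPM (edgeR adjusted p 0.000962). TNFAIP3, the enzyme A20 that shuts the pathway off, passed at −0.40 (edgeR adjusted p 0.0176). RELB at −0.39 (edgeR adjusted p 0.216), TNIP1 at −0.19 (0.208) and NFKBIA at −0.16 (0.633) did not. The list median ran from −0.204 to −0.118 when each library was left out in turn.

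Of 14 tested inflammatory enzymes, adhesion molecules and acute-phase genes, 13 were negative (against 49% of all genes tested), with a median of −0.34. On the lower side 9 had an unadjusted p under 0.05 (against 4.44%) and 1 was called (against 0.148%). C3, the central complement component, went from 480.2, 495.6 and 475.2 CPM to 305.6, 323.6 and 319.9 CPM without overlap (log2 fold change −0.61, SE 0.0519, edgeR adjusted p 4.1e-07). PTGS2, the inducible cyclooxygenase COX-2, fell by 27.6% from 53.43, 50.39 and 54.34 CPM to 38.41, 34.05 and 42.04 CPM (edgeR adjusted p 0.00965). ICAM1, an adhesion molecule for leukocytes whose exons share 25.41% of their bases with overlapping genes, fell by 22.1% (edgeR adjusted p 0.00094). TNFAIP2 passed the adjusted p at −0.25 (0.0334). VCAM1, at 829.2, 874.5 and 831.8 CPM and 616.8, 617.1 and 632.7 CPM, had no overlap and a log2 fold change of −0.44, but an edgeR adjusted p of 0.151.

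Interferon-stimulated genes were lower with CTPI2 in number, but this rested in large part on 1 control library. Of 25 genes, 23 were negative (against 49% of all genes tested), with a median of −0.39. On the lower side 16 had an unadjusted p under 0.05 (against 4.44%) and 2 were called (against 0.148%). Relative to the mean of the Sen(IR) libraries, the median of the list was 0.305 in Sen(IR) replicate 1 and −0.199 and −0.0629 in replicates 2 and 3, against −0.35, −0.392 and −0.356 with CTPI2. Without Sen(IR) replicate 1 the median was −0.19 and 6 genes had an unadjusted p under 0.05 on the lower side. In that fit 880 of all 16251 genes tested had one in either direction. The CTPI2 libraries were thus alike, and the control libraries were not.

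IFI6, an interferon-induced protein that limits cell death, stood at 191.2, 141.3 and 137.1 CPM in Sen(IR) and at 106.9, 86.26 and 99.41 CPM with CTPI2 (log2 fold change −0.68, edgeR adjusted p 0.00286). Without Sen(IR) replicate 1 it was at −0.51 (edgeR adjusted p 0.0498), and the call was lost without Sen(IR)+CTPI2 replicate 2 (0.0554) and with DESeq2 (0.0607). MX1, an antiviral GTPase, was at 107.7, 62.19 and 72.78 CPM and at 57.31, 55.34 and 51.91 CPM (−0.56, edgeR adjusted p 0.0428). Without Sen(IR) replicate 1 its value was −0.30 with an edgeR adjusted p of 0.413, and DESeq2 gave 0.213. DESeq2 instead called XAF1 (−0.72, adjusted p 0.0414) and IFI44 (−0.55, adjusted p 0.0141), which had edgeR adjusted p values of 0.0938 and 0.0618. Of 12 genes of MHC class I presentation, which interferon also induces, 0 were called, 11 were negative (against 49% of all genes tested) and the median was −0.11. HLA-B, a close relative of the other class I genes with 47.26% of its exon bases shared with overlapping genes, passed the adjusted p at −0.30 (0.0239) with 398.1 to 442.2 CPM and 316.5 to 354.1 CPM.

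**Figure D4:**
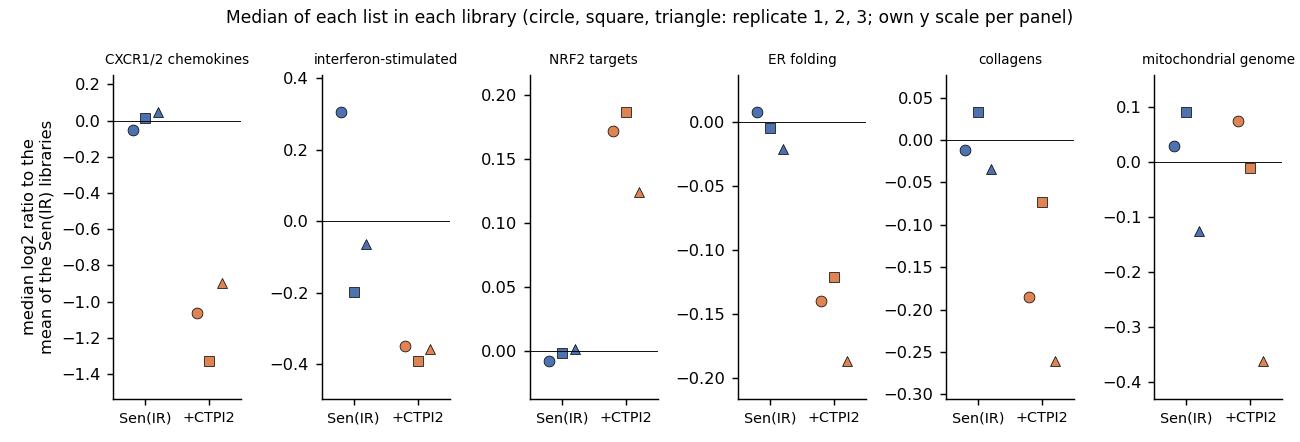
Median log2 ratio of each list's genes to the mean of the 3 Sen(IR) libraries (y axis, own scale per panel) in each Sen(IR) and Sen(IR)+CTPI2 library, with circle, square and triangle for replicates 1, 2 and 3. The medians of the groups do not overlap in any panel but that of the mitochondrial genome. Sen(IR) replicate 1 stands apart at 0.305 for interferon-stimulated genes, and CTPI2 replicate 3 stands apart at −0.362 for mitochondrial genome genes.

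Most collagens and folding genes of the endoplasmic reticulum had small negative values, where 49% of all genes tested were negative, and few passed the adjusted p. Of 18 collagens, 17 were negative and 0 were called by edgeR or DESeq2, with a median of −0.17. On the lower side 13 had an unadjusted p under 0.05 in edgeR (against 4.44% of all genes tested). COL8A1, a short-chain collagen of vessel walls, passed the adjusted p, from 272.1, 286.8 and 271.7 CPM to 201.4, 213.9 and 201.2 CPM (log2 fold change −0.43, edgeR adjusted p 2.27e-05). COL16A1 passed as well (−0.38, edgeR adjusted p 0.0334), while the main fibrillar chains COL1A1 (−0.18, 0.308) and COL1A2 (−0.24, 0.216) did not. The list median was −0.185, −0.073 and −0.261 in CTPI2 replicates 1 to 3, so replicate 3 was the lowest. Without it 7 collagens had an unadjusted p under 0.05 on the lower side. In that fit 1084 of all 16251 genes tested had one in either direction. Without Sen(IR) replicate 1 there were 8 collagens, against 880 of all genes in either direction.

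Of 15 folding genes of the endoplasmic reticulum, 14 were negative and 0 passed the adjusted p in edgeR (3 in DESeq2), with a median of −0.14. On the lower side 12 had an unadjusted p under 0.05 in edgeR (against 4.44% of all genes tested). The largest members were close together: HSP90B1 at −0.21 (edgeR adjusted p 0.123), HYOU1 at −0.20 (0.148), CALR at −0.17 (0.172) and HSPA5, the chaperone BiP, at −0.16 (0.285). The list median was −0.14, −0.121 and −0.187 in CTPI2 replicates 1 to 3. Leaving out replicate 3 left 8 members at an unadjusted p under 0.05 on the lower side, against 1084 of all 16251 genes in either direction. Of 13 genes that respond to TGF-beta, 11 were negative (against 49% of all genes tested) and 0 were called, with a median of −0.13. An unadjusted p under 0.05 on the lower side was found for 5 in edgeR (against 4.44%). At the adjusted p 0 passed in edgeR and 1 in DESeq2. In edgeR CCN2 was at −0.19 (adjusted p 0.141) and INHBA at −0.23 (0.335).

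Most NRF2 targets had positive values. NRF2 switches on enzymes that supply NADPH and glutathione and detoxify reactive compounds. Of 20 targets, 19 were positive, 15 had an unadjusted p under 0.05 on the higher side (against 2.83% of all genes tested), 0 were called by edgeR or DESeq2, and 1 passed the adjusted p in edgeR and 4 in DESeq2, with a median of 0.19. NQO1, a quinone reductase, rose from 603.9, 576.5 and 598.2 CPM to 744.5, 757.2 and 733.5 CPM (a log2 difference of 0.33, SE 0.0471, edgeR adjusted p 0.000433). All 3 CTPI2 libraries were above all 3 Sen(IR) libraries. PGD, which makes NADPH, was at 0.20 (edgeR adjusted p 0.093), the redox protein thioredoxin (TXN) was at 0.26 (0.0912), and TXNRD1, its reductase, was at 0.19 (0.204). HMOX1, another known target, was at 42.13, 40.72 and 34.77 CPM and 41.44, 38.46 and 38.45 CPM, with a 95% interval of its log2 fold change from −0.136 to 0.151.

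The number of NRF2 targets with an unadjusted p under 0.05 stayed between 10 and 15 under every alternative tried. The list median was 0.172, 0.187 and 0.124 in CTPI2 replicates 1 to 3, above the Sen(IR) libraries, which lay between −0.0084 and 0.000984. Both are log2 ratios to the mean of the Sen(IR) libraries, which centres the Sen(IR) values of each gene on 0 by construction. Of the 14 targets with a promoter in the table, 4 held the antioxidant response element (28.6%: GCLM, TXNRD1, PGD and ME1), against 12.2% of the genes tested and 10.9% of all promoters. Of the genes higher at the adjusted p with any fold, 0 of the 9 with a promoter held it, nor did either of the 2 such genes called higher. In the TXNRD1 window printed above it began 99 bases before the start.

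AKR1C1, an aldo-keto reductase that acts on steroids and prostaglandins, was called higher. It went from 201.8, 198.1 and 203.9 CPM to 281, 290.7 and 292.6 CPM, a change far beyond the spread within either group (log2 fold change 0.52, SE 0.0654, edgeR adjusted p 9.89e-05). Its near-identical neighbours AKR1C2 (0.31, edgeR adjusted p 0.494) and AKR1C3 (0.68, 0.285) were low in level and did not pass, and reads shared between them were not counted. Of 7 tested aldo-keto reductases, a list that includes these 3, 6 were positive and the median was 0.161. On the higher side 3 had an unadjusted p under 0.05 (against 2.83% of all genes tested). SLC2A12, the glucose transporter GLUT12, went from 15.3, 16.4 and 15.64 CPM to 24.03, 26.37 and 22.04 CPM (0.61, edgeR adjusted p 0.000222), and 51.18% of its exon bases are shared with TBPL1. The third call, the read-through transcript STIMATE-MUSTN1, rested on 45 counts with CTPI2 and 5 counts without, a ratio of 8.21 with a 95% counting interval of 3.27 to 26.5. Of its exon bases, 91.37% lie in other genes, and its call held in 1 of 6 fits with a library omitted.

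Further genes passed the adjusted p on the higher side with changes under the fold limit. PTGR1, an NADPH-dependent reductase of prostaglandins and alkenals, rose from a range of 80.53 to 82.77 CPM to one of 101.3 to 112.2 CPM (log2 fold change 0.40, edgeR adjusted p 0.000421). The taurine transporter SLC6A6 rose by 34.5% and the export pump ABCC3 by 31%. SLC12A8, MAP2, POP1, ITGA8, CDH6 and ABHD4 also passed, at 0.23 to 0.47 on the log2 scale.

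Of the 24 genes called lower, 9 were in no list. FGL2, a fibrinogen-like protein that dampens T cells, went from 148.5, 152.6 and 163 CPM to 101.9, 105.1 and 106.6 CPM (log2 fold change −0.57, SE 0.0563, edgeR adjusted p 3.92e-06). SCG2, a secreted precursor of neuropeptides, went from 23.05, 21.38 and 21.82 CPM to 13.68, 13.29 and 15.72 CPM (−0.63, SE 0.093, edgeR adjusted p 0.000603). Both calls held in every fit that left out a library. MIR3142HG, the host transcript of miR-146a, an NF-kB-induced microRNA, went from 4.138, 3.603 and 3.531 CPM to 2.193, 1.403 and 1.126 CPM (−1.26, edgeR adjusted p 0.0345). CHI3L1, the secreted glycoprotein YKL-40, was at 16.58 to 19.53 CPM and 11.17 to 12.98 CPM (−0.57, edgeR adjusted p 0.0428).

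The other 5 were the phospholipase PLCH1 (−1.45), the DNA nuclease subunit EME1 (−1.14), the globin HBD, TCIM (−0.63) and the octamer-binding factor POU2F2 (−0.53). PLCH1, EME1 and MIR3142HG were at 0.5778 to 4.138 CPM, where few counts stand behind each value. Genes that passed the adjusted p below the fold limit included SFRP1, a secreted Wnt antagonist, at 1241, 1228 and 1235 CPM without and 913.4, 932.9 and 941.5 CPM with CTPI2 (−0.41, edgeR adjusted p 7.09e-06). The protease inhibitor TIMP3 fell by 21.7%, the zinc and iron importer SLC39A14 by 25.6%, the oxidized lipoprotein receptor OLR1 by 25.4% and the glycosyltransferase GALNT5 by 19.5%.

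Transcripts of the route that CTPI2 acts on did not pass the test. Of 19 tested genes of the citrate and acetyl-CoA route, 0 passed the adjusted p in edgeR or DESeq2, 1 had an unadjusted p under 0.05, and the 95% interval lay within 0.5 of no change for 17. The target itself, SLC25A1, was at 100.7, 94.38 and 90.72 CPM and 95.99, 100.3 and 97.2 CPM, with an interval of the log2 fold change from −0.0814 to 0.158. ACLY was at 383.8 to 393 CPM and 359.3 to 396.7 CPM (−0.133 to 0.0616), and ACSS2, which makes acetyl-CoA from acetate, had an interval from −0.0508 to 0.258. MPC1, a subunit of the pyruvate carrier, was the exception at the unadjusted p (log2 fold change 0.23, edgeR adjusted p 0.558). Its partner MPC2 was at −0.07 and citrate synthase (CS) at 0.07.

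Genes of respiration, lipid synthesis and chromatin acetylation did not pass either. Of 71 nuclear subunits of the respiratory chain, 0 passed the adjusted p and 1 the unadjusted limit, and 70 had an interval within 0.5 of no change. Of these subunits 13 were negative (against 49% of all genes tested) and 58 positive, with a median of 0.04. No gene of sterol synthesis (23 tested) or fatty acid synthesis (12 tested) had an unadjusted p under 0.05. Of 31 histone acetyltransferases, deacetylases and acetyl readers, 29 had an interval within 0.5 and 1 an unadjusted p under 0.05, HDAC9 at −0.31 (edgeR adjusted p 0.491). In edgeR and in DESeq2, 0 genes of these 4 lists passed the adjusted p.

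Markers of the arrest were measured with narrow intervals in some cases and wide ones in others. For CDKN1A, the cell cycle inhibitor p21, the 95% interval of the log2 fold change was −0.0635 to 0.153. For CDKN2A, the locus of p16, it was −0.399 to 0.354, so a moderate change in either direction was not detectable. CDKN2A was lower in Sen(IR), at 4.074 ± 0.974 CPM (SD, n = 3), than in Prol, at 7.523 ± 0.753 CPM. HMGB1, a chromatin protein lost from senescent nuclei, was at 167.7 to 180.8 CPM and 172.3 to 175.1 CPM (−0.0969 to 0.116), and LMNB1, the lamin lost in senescence, was at −0.15 (−0.351 to 0.0586). Among 31 proliferation genes 0 passed the adjusted p in edgeR or DESeq2, and 25 had an interval within 0.5. At an unadjusted p under 0.05 there were 4 on the lower and 2 on the higher side (against 4.44% and 2.83% of all genes tested). The interval was −0.167 to 0.257 for the cyclin CCNA2, −0.0921 to 0.453 for MKI67, which marks cycling cells, and −0.312 to 0.0659 for CDKN2B, the inhibitor p15. CDKN2C, another cell cycle inhibitor, was at 2.18 to 2.749 CPM and 1.568 to 1.842 CPM (−0.52, −0.902 to −0.132, edgeR adjusted p 0.44). In its list of 13 genes it alone had an unadjusted p under 0.05 (against 7.27% of all genes tested). GDF15, a p53 target and secreted stress cytokine, was at 61.81 to 70.61 CPM and 53.95 to 60.6 CPM (−0.22, edgeR adjusted p 0.531).

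Sen(IR)+CTPI2 replicate 3 differed from its group in genes that were not called, and among the lowered ones it was often the nearest to Sen(IR). Among genes with a mean level above 1 on the log2 CPM scale, it lay more than 0.5 from the mean of the other 2 CTPI2 libraries in 281. Of these, 95 were above and 186 below. Replicates 1 and 2, set against the mean of their own group's other libraries, did so in 191 and 152 genes. The same count was 339 to 603 for the Prol libraries and 207 to 246 for those with UK5099. NEAT1, a long noncoding RNA of nuclear paraspeckles, was at 882.9 and 752.7 CPM in replicates 1 and 2 and at 496.1 CPM in replicate 3, with 792.2 to 801.2 CPM in Sen(IR). MEG3, an imprinted long noncoding RNA, was at 892.5, 839.2 and 561.6 CPM. KMT2D, a histone methyltransferase, went the other way at 34.64, 39.12 and 58.67 CPM, with 36.49 to 39.02 CPM in Sen(IR). All 13 protein genes of the mitochondrial genome were at their lowest CTPI2 level in replicate 3.

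For the 24 lowered genes, replicate 3 was the library nearest to Sen(IR) in 15 and replicate 2 the farthest in 17. The median log2 ratio to Sen(IR) was −0.728, −0.981 and −0.681 in replicates 1 to 3. Without replicate 3, 21 genes were called, 20 of them among the 27. The counts were lowest at 15, with CTPI2 replicate 2 omitted, and 16, with Sen(IR) replicate 3 omitted, and so depended on those libraries more than on CTPI2 replicate 3. Across the 6 fits with a library omitted, 14 of the 27 calls held every time: CXCL1, CXCL3, CXCL5, CXCL6, CXCL8, CXCL10, IL6, IL1B, TNFSF18, C3, FGL2 and SCG2 on the lower side and AKR1C1 and SLC2A12 on the higher side. IFI6 held in 5, EME1 in 4, and IL11 and HBD in 3. CHI3L1, PLCH1 and POU2F2 held in none, and CCL20, MIR3142HG, TCIM, TNFSF15, MX1 and STIMATE-MUSTN1 in 1.

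**Figure D5:**
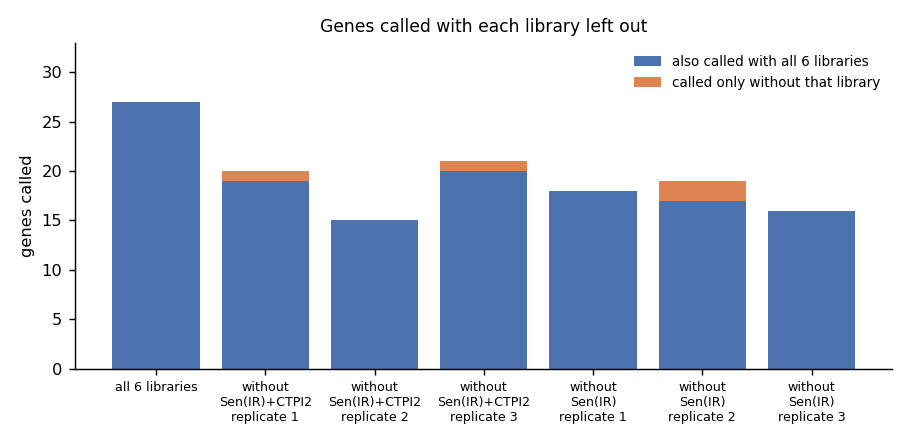
Number of genes called (y axis, from 0) with all 6 libraries and with each library left out, split into genes also called with all 6 libraries (blue) and genes called only without that library (orange). The count fell from 27 to 15 without CTPI2 replicate 2 and to 21 without CTPI2 replicate 3.

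Set beside the other groups of the study, the CTPI2 levels of CXCL1, C3 and CXCL10 lay far above those of proliferating cells. CXCL1 was at 138.5 ± 14.6 CPM with CTPI2 (SD, n = 3), 0.308 ± 0.232 CPM in Prol and 0.2336 ± 0.0335 CPM with UK5099. C3 was at 316.4 ± 9.47 CPM with CTPI2, 1.532 ± 0.328 CPM in Prol and 0.66 ± 0.0811 CPM with UK5099. CXCL10 was at 76.34 ± 10.2 CPM, 0.2385 ± 0.177 CPM and 0.2233 ± 0.107 CPM in the same order. IL11 differed, with 6.309 ± 1.11 CPM with CTPI2 against 110.8 ± 12 CPM in Prol and 10.06 ± 0.771 CPM in Sen(IR). AKR1C1, raised by CTPI2 to 288.1 ± 6.22 CPM, was at 48.58 ± 6.34 CPM in Prol and 422.2 ± 26.6 CPM with UK5099. These groups were compared with the same Sen(IR) libraries, so the values are given side by side and no overlap between the comparisons was computed.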

How the data were processed

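RNA from MRC5 cells was sequenced in 12 libraries, 3 per group, and 6 of them form the comparison. According to the methods, the authors trimmed with Trimmomatic 0.36, mapped to GRCh38 by STAR 2.5.2b, and took gene counts of uniquely mapped exon reads from featureCounts (Subread 1.5.2), so reads that fit several near-identical genes were lost. The deposited table holds these counts for 57500 genes without normalization. Whether the libraries were stranded is not given in the sources used here, so reads of overlapping genes cannot be told apart.

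Counts were fitted in R 4.3.3 with edgeR 4.0.16 (filterByExpr, TMM, glmQLFit and glmQLFTest on all 12 libraries in 4 groups, no replicate term), and p was adjusted by Benjamini-Hochberg over 16251 genes. SE is the absolute log2 fold change divided by the square root of F. Calls needed an adjusted p under 0.05 and a log2 fold change more than 0.5 from 0. CPM used the TMM-scaled library totals. Positions and exon overlaps came from GENCODE v44, promoters from RefSeq (GRCh38.p14).

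The members and the 42 gene lists were chosen with earlier results of these data known. Named genes were every called gene, the 10 genes per direction with the smallest adjusted p among the rest, a panel of SASP, citrate and arrest genes, the members of a list at an adjusted p under 0.05 or among its 4 smallest p-values, and the genes in which CTPI2 replicate 3 differed most. CXCL2, VCAM1, TXNRD1, and AREG with its neighbours were named after their values were seen. Alternatives were upper-quartile or RLE scaling, DESeq2 1.42.0, no filter, only the 2 compared groups, a replicate block, other limits and leaving out each library. Leaving out Sen(IR) replicate 1 and CTPI2 replicate 3 together was chosen after seeing the data. Some genes are not reported here.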

Additional observations from a re-analysis of the deposited data

How the results depend on the processing

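Of 27 genes called, 24 were lower, 3 higher and 13 of the lower ones in inflammatory lists. DESeq2 gave 29 (23 shared), RLE and upper-quartile scaling 28 each (27 shared), only the 2 compared groups 35 (27 shared), and no filter on low counts 46 (38 lower, 8 higher, 27 shared). With no fold limit there were 79 (65 lower, 14 higher, 21 inflammatory), and with the fold limit raised to 1 there were 11 (10 lower, 1 higher, 6 inflammatory). In the fit of only the 2 compared groups, 215 genes passed the adjusted p with no fold limit. With the limit on the unadjusted p there were 296 in edgeR (173 lower, 123 higher) and 230 in DESeq2 (137 lower, 93 higher). Leaving out 1 library gave 15 to 21 genes, with 13 to 18 lower, 2 to 3 higher and 10 to 14 inflammatory. With Sen(IR) replicate 1 and Sen(IR)+CTPI2 replicate 3 both left out there were 16 (14 lower, 15 of the 16 shared). Fits without a library hold fewer samples, and the cause of the other shifts was not tested. The median log2 fold change of all genes was −0.00376 with RLE and −0.00574 with upper-quartile scaling.

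Leaving out each library in turn, list medians on the log2 scale ran from −0.983 to −0.423 for CC and CX3C chemokines, −0.394 to −0.162 for TNF superfamily ligands, −0.204 to −0.118 for NF-kB genes, −0.399 to −0.288 for inflammatory enzymes, −0.489 to −0.186 for interferon-stimulated genes, 0.00424 to 0.0619 for the citrate route, −0.062 to 0.0549 for the IL-6 family and −0.164 to 0.0353 for the mitochondrial genome. With both libraries left out they were −0.891 for CC and CX3C chemokines, −0.363 for inflammatory enzymes, −0.193 for interferon-stimulated genes and 0.149 for NRF2 targets. Signs turned for 5 genes that were not called, whose values ran from −0.0678 to 0.00394 for ACLY, −0.238 to 0.187 for CDKN2A, −0.0541 to 0.124 for CCNA2, −0.0121 to 0.0424 for HMGB1 and −0.0709 to 0.063 for HMOX1. With both libraries left out ACLY was at 0.0039, CCNA2 at −0.0406 and HMGB1 at −0.0205, and HMOX1 was at −0.00123 with upper-quartile scaling.

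Same-numbered libraries of the 2 groups deviated together at an r of 0.0506, 0.0252 and 0.106. Sen(IR)+CTPI2 replicates 1 and 3 correlated best with the Sen(IR) library of the same number, and replicate 2 with Sen(IR) replicate 1 (0.051). Deviations from means of 3 libraries cannot decide whether same-numbered libraries were handled together, and the labels do not say. A replicate block gave 25 calls, 24 of them among the 27. A count of 0 allowed a level of up to 0.124 to 0.147 CPM across the 6 libraries, and lower levels were not detectable at this depth.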

Other observations

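Among other secreted factors, 0 of 16 tested FGF, EGF and VEGF family ligands were called, and the median was −0.10. On the lower side 3 had an unadjusted p under 0.05. Over all genes tested that share was 4.44%, which also stands beside the counts of the lists below. VEGFC, a growth factor of lymphatic vessels, was at 111.3, 103.1 and 108.8 CPM in Sen(IR) and 86.3, 83.94 and 87.67 CPM with CTPI2, without overlap but with an edgeR adjusted p of 0.208 (log2 fold change −0.33). NRG1, a ligand of ERBB receptors, had a log2 fold change of −0.26 (edgeR adjusted p 0.323) and HGF one of −0.18 (0.592). Of 7 genes for IGF-binding proteins and IGF ligands, 4 had an unadjusted p under 0.05 on the lower side and 0 were called, with IGFBP4 at −0.17 (edgeR adjusted p 0.368), IGFBP7 at −0.15 (0.509) and IGFBP3 at −0.13 (0.605). By contrast, 17 matrix metalloproteinases and their inhibitors had a median of 0.00116 with 8 negative and 9 positive members. TIMP3 alone passed the adjusted p there, and MMP14, which activates other metalloproteinases, was at −0.10 (0.644) and MMP19 at −0.23 (0.268). Of 13 contractile genes 0 were called and 4 had an unadjusted p under 0.05 on the lower side, among them TAGLN at −0.17 (0.561), whose exons share 47.76% of their bases with other genes.

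DESeq2 called 6 genes that edgeR did not. Besides CXCL2, IFI44 and XAF1 these were NR4A1, an immediate-early nuclear receptor, at −0.81 (DESeq2 adjusted p 0.00963, edgeR adjusted p 0.0542), FLT1, a VEGF receptor, at −0.62 (0.0349 and 0.132), and UNC5C, a netrin receptor, at 1.08 (0.0362 and 0.0938). These 3 were named after their values were seen.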
